A study of Mus musculus with 2 samples.

Results

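The genes described here are 38 mouse genes of glycolysis and of the transcriptional response to low oxygen, out of 23288 genes in the deposited expression tables. They were chosen by name: 17 glycolytic enzymes, 2 glucose transporters, 2 lactate transporters, 3 regulators of glycolytic flux, 3 genes of oxygen sensing and 11 further genes that hypoxia-inducible factor (HIF) is known to induce. All 38 have a row in both libraries, and 33 had a mean of at least 1 RPKM (reads scaled to transcript length and to library depth), the minimum set for comparing the libraries. The study sequenced RNA from splenic B cells of 2 genotypes, Nedd4+/+ and Nedd4-/-, with 1 library of each. The cells came from chimeric mice made with fetal liver, with the strain background B6:129-backcrossed to B6, and both cultures received LPS and IL4 for 72 hours to induce class switching to IgG1. How many mice were pooled, and how many B cells of the chimeras' hosts remained, is not given in the sources used here. Nedd4 encodes a HECT-domain ubiquitin ligase, and the labels name no other allele or agent.

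Glycolysis converts glucose to pyruvate in the cytoplasm, and lactate dehydrogenase and the monocarboxylate transporters then turn pyruvate into lactate and move it out of the cell. HIF is a pair of transcription factor subunits; prolyl hydroxylases of the Egln family mark the alpha subunit for destruction when oxygen is available, and when it is not, HIF induces glucose transporters, most glycolytic enzymes and genes that restrain mitochondrial respiration. Activated B cells raise glycolysis as they grow and divide, and Myc and mTOR signalling contribute to that rise.

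With 1 library per genotype there is no replicate spread and no test. Every difference below compares these 2 libraries, and a difference between the genotypes cannot be told apart from one between the cultures. Where an interval is given it is an exact 95% interval on read pairs estimated from the deposited values, and it covers counting error only. The Nedd4+/+ library held 8.40 gigabases of mapped sequence and the Nedd4-/- library 6.17 gigabases, in read pairs of 101 bases a read. Nedd4 itself read 7.59 RPKM in the Nedd4+/+ library and 1.95 RPKM in the Nedd4-/- library. Xist, transcribed from the inactive X chromosome, read 23.7 and 0.0958 RPKM, and the Y-linked Ddx3y read 2.63 and 10.6 RPKM, so sex-linked transcripts differed too; the labels do not give the sex of the mice. Most genes were lower in the Nedd4-/- library: over the 9405 genes with a mean of at least 1 RPKM, the median log2 ratio was -0.31, with the 5th and 95th percentiles at -0.74 and 0.06. A log2 ratio here is log2((Nedd4-/- + 1)/(Nedd4+/+ + 1)) in RPKM, "relative" means that the median of -0.31 was subtracted, and intervals are on the log2 ratio without the added 1 RPKM, where the median of all genes was -0.39. An interval can therefore leave out the value printed beside it. Counts of genes at least 2-fold lower or higher use the log2 ratio with 1 RPKM added, so some genes past 2-fold in plain RPKM are not counted. Bases aligned within transcripts made up 32.6% of the Nedd4+/+ library and 24.4% of the Nedd4-/- library.

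Genes of glycolysis and the hypoxia response were lower still in the Nedd4-/- library. The all-gene median was undercut by 31 of the 33 tested, where 50.0% of all genes fall below it. Their median log2 ratio was -0.90 and their median relative value -0.59. At least 2-fold lower were 12 of them, against 1.15% of all genes tested, and none was at least 2-fold higher, against 0.138% of all genes. Those 12 were the lactate transporter Slc16a3, the glucose transporter Slc2a1, the enzymes Eno1, Pkm, Pfkp, Tpi1 and Gapdh, the regulator Pdk1, and Bnip3, Vegfa, Ankrd37 and Ddit4. Relative to the median of all genes only Slc16a3 and Bnip3 stayed past 2-fold, against 0.223% of all genes. For 29 of the 33 the counting interval lay wholly below the median of all genes. Fewer cells that express these genes and less of their RNA per cell cannot be told apart in bulk libraries.

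**Figure D1:**
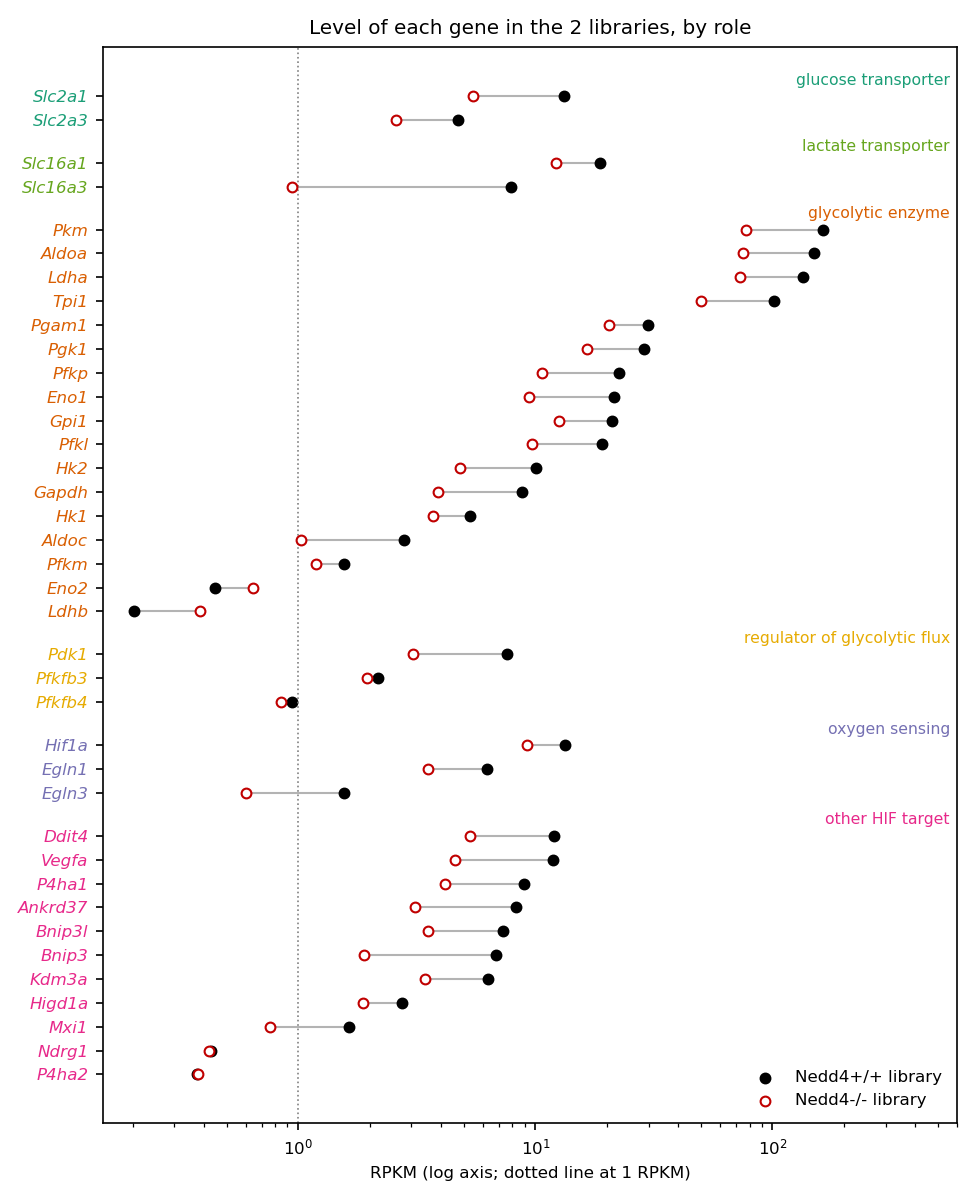
Level of each of the 38 genes in RPKM (log axis) in the Nedd4+/+ library (filled black) and the Nedd4-/- library (open red), grouped by role; each row joins the values of 1 gene and the dotted line marks 1 RPKM. All 33 genes with a mean of at least 1 RPKM have the open point on the left, the widest gap is at Slc16a3, and Eno2, Ldhb and, by 0.374 against 0.379 RPKM, P4ha2 have it on the right.

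The gene that differed by the most was Slc16a3, which encodes MCT4, a lactate exporter of glycolytic cells and a known HIF target. It read 7.87 RPKM (about 780 read pairs) in the Nedd4+/+ library and 0.941 RPKM (about 69 pairs) in the Nedd4-/- library, which is 12.0% of the Nedd4+/+ level or 8.36-fold lower. Its log2 ratio was -2.19 and its relative value -1.88, with a counting interval from -3.43 to -2.70. Only 3 of the 9405 genes had a lower log2 ratio, namely Xist, its antisense partner Tsix and Lars2. Slc16a3 overlaps Csnk1d, a casein kinase gene, by 1292 bases in the GRCm38 annotation, and Csnk1d read 9.48 and 7.64 RPKM, a relative value of 0.03. No 101-base stretch of the Slc16a3 transcript occurs in another annotated gene. The kilobase upstream of Slc16a3 read 0.203 and 0.393 RPKM, so the gene stood 38.7 times above its upstream window in the Nedd4+/+ library and 2.40 times above it in the Nedd4-/- library.

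Slc16a1 encodes MCT1, the other monocarboxylate transporter measured. It read 18.7 and 12.2 RPKM, a log2 ratio of -0.58 and a relative value of -0.26. Slc16a1 was therefore 2.38 times as abundant as Slc16a3 in the Nedd4+/+ library and 13.0 times as abundant in the Nedd4-/- library. This balance moved by 2.45 on the log2 scale (counting interval 2.07 to 2.83), the largest change among the 11 pairs of related genes compared. Library scaling cancels in such a ratio.

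The promoters of these genes are shown for the members at the ends of the range: Slc16a3, its paralogue Slc16a1, Bnip3, Ldha with the most HIF core motifs in 1 window, and Tpi1 with none. Each run is the 250 bases before an annotated start, 5′ to 3′ on the gene's strand, from RefSeq on GRCm38.p6. Capitals mark ACGTG or GCGTG on either strand, the core of the site HIF binds; a CACGTG holds 1 match on each strand and counts as 2. The Slc16a3 and Ldha stretches lie within the span of a longer annotated transcript of the same gene.
Slc16a3, chr11:120948817-120949066, + strand: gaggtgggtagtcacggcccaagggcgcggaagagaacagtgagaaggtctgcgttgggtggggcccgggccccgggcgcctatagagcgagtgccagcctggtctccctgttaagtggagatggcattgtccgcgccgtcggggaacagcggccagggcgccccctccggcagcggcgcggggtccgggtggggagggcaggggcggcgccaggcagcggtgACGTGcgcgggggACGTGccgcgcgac
Slc16a1, chr3:104638414-104638663, + strand: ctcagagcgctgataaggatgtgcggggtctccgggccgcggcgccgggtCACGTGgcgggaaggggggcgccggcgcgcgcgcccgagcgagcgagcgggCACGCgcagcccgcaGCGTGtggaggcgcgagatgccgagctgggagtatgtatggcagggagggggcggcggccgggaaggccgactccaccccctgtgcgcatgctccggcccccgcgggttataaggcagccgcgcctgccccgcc
Bnip3, chr7:138909507-138909756, - strand: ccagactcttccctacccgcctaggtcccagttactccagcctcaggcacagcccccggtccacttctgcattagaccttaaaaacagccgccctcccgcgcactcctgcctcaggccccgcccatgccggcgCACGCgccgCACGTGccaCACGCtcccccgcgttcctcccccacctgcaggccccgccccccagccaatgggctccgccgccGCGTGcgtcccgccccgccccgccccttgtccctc
Ldha, chr7:46845554-46845803, + strand: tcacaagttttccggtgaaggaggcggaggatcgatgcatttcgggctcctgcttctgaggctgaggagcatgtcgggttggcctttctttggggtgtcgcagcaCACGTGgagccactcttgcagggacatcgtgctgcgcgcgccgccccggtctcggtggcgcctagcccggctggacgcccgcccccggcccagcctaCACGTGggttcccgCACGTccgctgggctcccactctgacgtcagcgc
Tpi1, chr6:124814159-124814408, - strand: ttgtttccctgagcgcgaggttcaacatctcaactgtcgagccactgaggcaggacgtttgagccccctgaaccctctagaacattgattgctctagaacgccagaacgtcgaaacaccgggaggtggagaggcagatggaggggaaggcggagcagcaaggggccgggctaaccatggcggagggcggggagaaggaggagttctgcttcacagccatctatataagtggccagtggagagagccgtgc

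The Slc16a3 stretch has 2 matches, beginning at -27 and -14 with the last base before the start as -1. Its paralogue Slc16a1, which differed far less, has 4 in the same length. Bnip3 has 5, of which 4 fall between -117 and -99, and the Ldha stretch has 5, while Tpi1, at least 2-fold lower, has none. In windows of 300 bases (250 before and 50 after the start), 77.4% of the 53 windows of these genes held a match, against 43.8% of all 32851 windows. By gene, 32 of the 35 members in the table had a match in at least 1 window, against 46.7% of all 27019 genes and 70.3% of the 7456 genes tested that are in the table. Ndrg1, Slc2a3 and Bnip3l are not in the table. The motif holds a CG, and the window richest in CG held a median of 25 of them in the members, 23 in the genes tested and 8 over all genes; its part in the difference was not tested. The table covers 79.3% of the genes tested, short of the coverage set for a check, so the check against them is void and their shares stand only as a description. A match was present for 11 of the 12 members that were at least 2-fold lower and for 18 of the 19 others tested that are in the table, the exceptions being Tpi1 and Gpi1. Nearly all of both groups hold a match, so its presence could hardly tell them apart. At least 2 matches were present for 11 of the 12 and for 13 of the 19. CACGTG, the letters Myc and Max also bind, was present for 6 of the 35 members, against 12.6% of the genes tested in the table and 8.09% of all genes, with 1 of the 12 and 5 of the 19.

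The transcripts of both glucose transporters were lower in the Nedd4-/- library. Slc2a1 (GLUT1), the transporter of most growing cells, read 13.2 RPKM in the Nedd4+/+ library and 5.44 RPKM in the Nedd4-/- library, which gave -1.14 in log2 (interval -1.42 to -1.14) and a relative value of -0.83. The high-affinity transporter Slc2a3 (GLUT3) read 4.73 and 2.57 RPKM, a log2 ratio of -0.68 and a relative value of -0.37. Slc2a1 thus went from 2.79 to 2.11 times the level of Slc2a3, a change of -0.40 in log2 (interval -0.64 to -0.16).

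The transcripts of glycolytic enzymes were lower at every step from glucose to lactate. Summed over the members of a step, the Nedd4-/- level ranged from 44.2% of the Nedd4+/+ level at glyceraldehyde phosphate dehydrogenase to 68.1% at phosphoglycerate mutase, while the gene at the median of all genes stood at 76.4%. Of the 17 enzyme genes 15 were tested, and their log2 ratios had a median of -0.91. At least 2-fold lower were 5, against 1.15% of all genes tested, and 14 undercut the all-gene median, against 50.0%. The summed level of the 17 was 721 RPKM in the Nedd4+/+ library and 369.8 RPKM in the Nedd4-/- library. As a share of the RPKM of all genes that was 0.483% and 0.318%.

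The 4 most abundant enzyme transcripts per length stood at 47.4% to 54.0% of their Nedd4+/+ level. Pkm, which encodes muscle-type pyruvate kinase and makes the pyruvate, read 163.5 RPKM in the Nedd4+/+ library and 77.6 RPKM in the Nedd4-/- library, with a log2 ratio of -1.07 (interval -1.12 to -1.03). The aldolase gene Aldoa, whose product splits the 6-carbon sugar, read 149 and 74.8 RPKM (-0.99, interval -1.05 to -0.94). Ldha, whose subunits favour lactate production, read 134 and 72.6 RPKM (-0.88, interval -0.95 to -0.83). The triose phosphate isomerase gene Tpi1 read 101.7 and 49.9 RPKM (-1.01, interval -1.10 to -0.96). These 4 genes made up 63.5% of the summed RPKM of all 38 in the Nedd4+/+ library. Their relative values were -0.75, -0.67, -0.57 and -0.70, so none was past 2-fold on that scale.

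The kinases that commit glucose to the pathway were uneven. Hk2, the inducible hexokinase bound to mitochondria, read 10.04 RPKM in the Nedd4+/+ library and 4.81 RPKM in the Nedd4-/- library (-0.93, interval -1.18 to -0.95), and the housekeeping isozyme Hk1 read 5.32 and 3.69 RPKM (-0.43, interval -0.69 to -0.37). Hk1 went from 0.530 to 0.768 of the Hk2 level, a balance change of 0.53 (interval 0.33 to 0.73). For phosphofructokinase, the platelet-type Pfkp read 22.6 and 10.6 RPKM (-1.02, interval -1.18 to -0.997). The liver-type Pfkl read 19.0 and 9.65 RPKM (-0.91, interval -1.08 to -0.88). Pfkl and Pfkp kept to a like ratio, 0.844 and 0.908, with an interval for the change that includes 0 (-0.03 to 0.24). The muscle-type Pfkm, at 1.57 and 1.19 RPKM, was 1 of the 2 genes above the median of all genes (relative value 0.08), and its interval was wide, from -0.76 to -0.04. Pfkm overlaps Senp1, which read 3.21 and 2.31 RPKM, and 16.0% of the 101-base stretches of the Pfkp transcript also occur in Pitrm1, which overlaps it.

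Gpi1, which interconverts glucose and fructose phosphates, read 21.1 RPKM in the Nedd4+/+ library and 12.6 RPKM in the Nedd4-/- library (-0.70, relative -0.38). Pgam1, the phosphoglycerate mutase, had the smallest difference among enzymes above 10 RPKM: 29.97 and 20.4 RPKM (-0.53, relative -0.22). Aldoc, a minor aldolase at 2.78 and 1.02 RPKM, stood at 36.7% of its Nedd4+/+ level, with about 197 and 53 read pairs and an interval from -1.91 to -1.004. Aldoa supplied 98.2% of the RPKM of the pair Aldoa and Aldoc in the Nedd4+/+ library and 98.7% in the Nedd4-/- library. The aldolase A related genes Aldoart1 and Aldoart2, which are not members, averaged 6.04 and 5.83 RPKM over the libraries.

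Eno1, Gapdh and Pgk1 have near-identical copies elsewhere, and their values are uncertain. Eno1, the main enolase, read 21.5 and 9.44 RPKM (-1.11), and 58.8% of the 101-base stretches of its transcript occur in another annotated gene. Gapdh, usually among the most abundant transcripts, read only 8.82 and 3.90 RPKM (-1.003), and 78.0% of its stretches occur in 1 or more of 85 other annotated genes. X-linked Pgk1, which yields the first ATP of the pathway, read 28.9 and 16.6 RPKM (-0.76), with 67.0% of its stretches shared. For Pgam1 the share was 39.7%, for Bnip3 33.1% and for Higd1a 32.3%. How the deposited values treated reads with several matches is not given in the sources used here. Among the 21 tested genes with under 10% shared and no overlapping protein-coding gene, 20 undercut the all-gene median, against 50.0% of all genes. At least 2-fold lower were 5 of the 21, against 1.15% of all genes.

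The neuronal enolase Eno2 and the heart-type Ldhb, both under 1 RPKM, were listed higher in the Nedd4-/- library. Eno2 read 0.447 RPKM in the Nedd4+/+ library and 0.642 RPKM in the Nedd4-/- library, with about 52 and 55 read pairs. Ldhb read 0.203 and 0.386 RPKM, with about 11 and 15 pairs. Their intervals include 0 (-0.05 to 1.10 for Eno2 and -0.33 to 2.16 for Ldhb), so neither difference from 0 was detectable at this depth. Both intervals lie above -0.39, but that is the median of genes at 1 RPKM or more, and Eno2 and Ldhb are not among them. Eno2 stood 2.18 and 2.19 times above its upstream window in the Nedd4+/+ and Nedd4-/- libraries, and Ldhb 1.71 and 2.41 times. The part of background in their values was not tested. The ratio of Eno1 to Eno2 changed from 48.1 to 14.7 and that of Ldha to Ldhb from 662 to 188, with Eno1 still 93.6% and Ldha 99.5% of their pair's RPKM in the Nedd4-/- library.

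**Figure D2:**
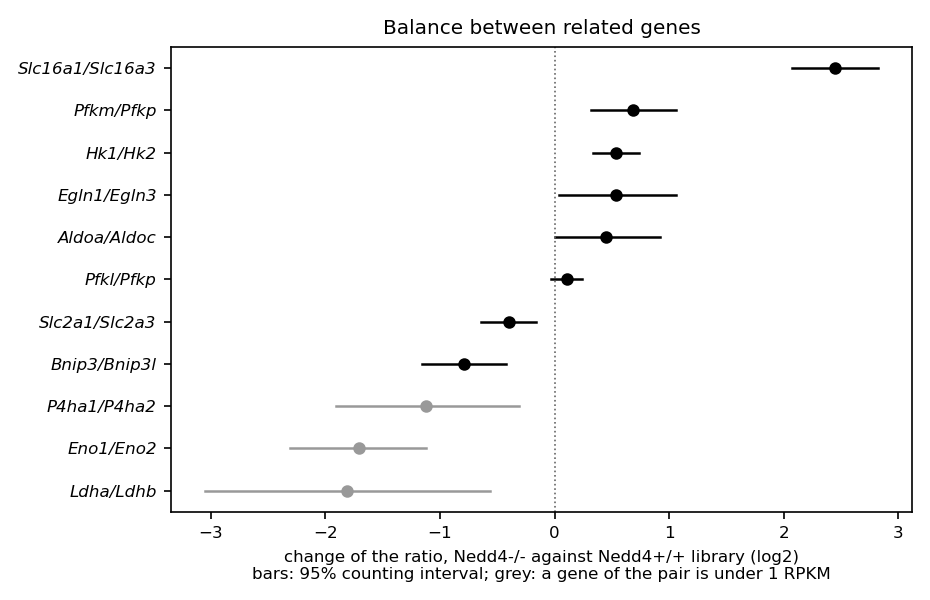
Change between the libraries of the ratio of 2 related genes (log2, Nedd4-/- against Nedd4+/+), for 11 pairs; points are the change and bars the exact 95% counting interval, with grey where a gene of the pair is under 1 RPKM. Slc16a1/Slc16a3 lies farthest to the right at 2.45, and Pfkl/Pfkp is the only pair whose bar includes 0.

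Among the regulators, Pdk1 and the Pfkfb genes parted. Pdk1 phosphorylates pyruvate dehydrogenase and so keeps pyruvate out of the citrate cycle; it read 7.59 RPKM in the Nedd4+/+ library and 3.05 RPKM in the Nedd4-/- library, which gave -1.08 in log2 (interval -1.46 to -1.17). Only 71 of 9405 genes were lower. Pfkfb3 makes fructose 2,6-bisphosphate, the activator of phosphofructokinase, and is a known HIF target. It read 2.18 and 1.96 RPKM, a log2 ratio of -0.10 and the highest relative value of the 33 genes, 0.21. Its interval, -0.37 to 0.06, lay wholly above the median of all genes. Pfkfb4, under 1 RPKM, read 0.944 and 0.846 RPKM (interval -0.56 to 0.23).

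With 1 RPKM added, the genes of oxygen sensing lay closer to the bulk of genes. Hif1a, the regulated HIF subunit, whose protein level is set mainly by hydroxylation rather than by its RNA, read 13.4 RPKM in the Nedd4+/+ library and 9.24 RPKM in the Nedd4-/- library (-0.49, relative -0.17, interval -0.63 to -0.44). The hydroxylase genes Egln1 and Egln3, both induced by HIF as feedback, read 6.27 and 3.52 RPKM (-0.68, relative -0.37) and 1.55 and 0.603 RPKM (-0.67, relative -0.36). Without the added 1 RPKM, Egln3 stood at 38.8% of its Nedd4+/+ level and Egln1 at 56.2%. With 1 RPKM added none of the 3 was at least 2-fold lower, while without it Egln3 was 2.58-fold lower.

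HIF targets outside glycolysis differed about as much as the enzymes. Of the 11, 9 were tested. At least 2-fold lower were 4, against 1.15% of all genes tested. All 9 undercut the all-gene median, where 50.0% of all genes fall below it. Their median log2 ratio was -0.95, which is 0.03 below that of the enzymes. With the 3 oxygen sensing genes added the median of the 12 was -0.80, and the 4 glucose and lactate transporters had a median of -0.91. The role groups thus overlapped in their log2 ratios: enzymes ran from -1.11 to -0.23 and the other HIF targets from -1.43 to -0.37.

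Bnip3 encodes a receptor for mitophagy, the removal of mitochondria. It read 6.81 RPKM in the Nedd4+/+ library and 1.90 RPKM in the Nedd4-/- library (about 497 and 102 read pairs), 27.9% of the Nedd4+/+ level, with 14 of 9405 genes lower. Its paralogue Bnip3l (NIX) read 7.34 and 3.54 RPKM (-0.88, interval -1.23 to -0.87). Bnip3 went from 0.928 to 0.537 of the Bnip3l level, a balance change of -0.79 (interval -1.16 to -0.43).

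Vegfa, the angiogenic growth factor, read 11.8 RPKM in the Nedd4+/+ library and 4.59 RPKM in the Nedd4-/- library (interval -1.51 to -1.22). Ankrd37, an ankyrin repeat gene strongly induced by hypoxia, read 8.26 and 3.10 RPKM (interval -1.76 to -1.06), and Ufsp2, which overlaps it, read 11.3 and 6.34 RPKM (-0.75). Ddit4 (REDD1), which restrains mTORC1 under stress, read 12.0 and 5.31 RPKM (-1.04, interval -1.37 to -0.98). These 3 had relative values of -0.89, -0.86 and -0.73.

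P4ha1, a collagen prolyl hydroxylase subunit, read 8.92 RPKM in the Nedd4+/+ library and 4.15 RPKM in the Nedd4-/- library (-0.95, interval -1.25 to -0.96). The histone demethylase Kdm3a read 6.31 and 3.44 RPKM (-0.72), and Mxi1, a Max partner that opposes Myc, read 1.63 and 0.759 RPKM (-0.58). Higd1a, a mitochondrial inner membrane protein gene, read 2.73 and 1.88 RPKM and lay nearest the median of all genes in this group (relative -0.06, interval -0.86 to -0.22). Below 1 RPKM, P4ha2 read 0.374 and 0.379 RPKM and Ndrg1, usually a strongly induced HIF target, read 0.427 and 0.420 RPKM, with intervals that include 0 (-0.77 to 0.79 and -0.67 to 0.62).

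The log2 ratio moved with the level of a gene, so the members were also set against genes of like level. Over all genes the median ratio was -0.17 between 1 and 2 RPKM and -0.41 at 100 RPKM or more. Against the median of their own band of level, 32 of the 33 genes were lower, where 50.0% of all genes are, and their median distance was -0.52. The exception was Pfkfb3, at 0.18. Below the 5th percentile of their band were 22 of the 33, against 5.03% of all genes; among the 11 that were not were Hk1, Pfkm, Pgam1, Slc16a1 and Hif1a. Slc16a3 lay at -1.91 and Bnip3 at -1.14 on that scale. In the band from 5 to 10 RPKM, the 9 members had a median log2 ratio of -1.04, against -0.36 for all 2290 genes of the band. In the band from 100 RPKM up, 6.02% of genes passed 2-fold lower, and of the 3 members there Pkm lay below the 5th percentile of -1.01 while Aldoa and Ldha did not.

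**Figure D3:**
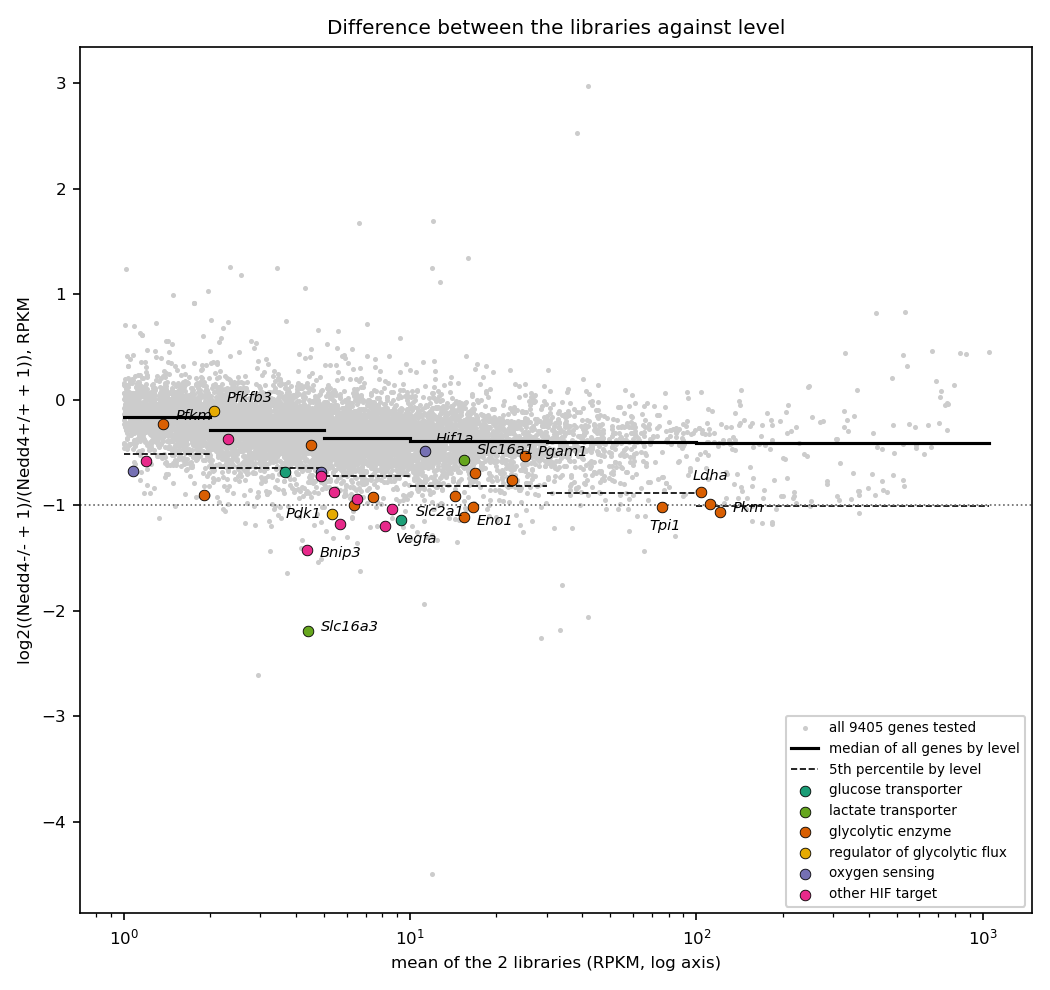
Log2 ratio of Nedd4-/- over Nedd4+/+ (1 RPKM added to both) against the mean level (RPKM, log axis) for all 9405 genes tested (grey) and for the 33 members (coloured by role); solid lines are the median and dashed lines the 5th percentile of all genes in each band of level, and the dotted line marks 2-fold lower. Of the 33, 22 lie under the dashed lines, Slc16a3 and Bnip3 lie farthest below, and Pfkfb3 lies above the solid line.

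The kilobase upstream of these genes, like most windows of all genes, was mostly higher in the Nedd4-/- library. Of the 32 upstream windows with a mean of at least 0.2 RPKM, 27 were higher in the Nedd4-/- library and 5 lower. At least 2-fold higher were 6, against 19.8% of all 11837 windows, a share near the background. The 32 windows had a median log2 ratio (0.1 RPKM added) of 0.59, against 0.41 for all windows. Of the 32, 19 lay above the median of all windows and 13 below it. The windows of P4ha1 (0.106 and 0.576 RPKM), Pdk1 (0.0480 and 0.368 RPKM) and Hif1a (0.124 and 0.433 RPKM) were among those past 2-fold. The highest was upstream of Tpi1, at 4.56 RPKM in the Nedd4+/+ library and 3.42 RPKM in the Nedd4-/- library. Only the window of Pfkm was at least 2-fold lower, at 1.203 and 0.550 RPKM, against 94 of all 11837 windows. Subtracting the median upstream level of each library from all genes left the members' median at -0.94.

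Related pathways from other lists lay nearer the median of all genes. The 13 tested components of the HIF pathway that are not members had a median relative value of -0.04, with 7 below and 6 above the median of all genes, and none past 2-fold; Cited2, an inhibitor of HIF's coactivator binding, was the lowest at 9.33 and 5.69 RPKM, and the elongin C gene Tceb1 read 15.5 and 14.9 RPKM. Of 23 further hypoxia-inducible genes 17 lay below, with a median of -0.20. With 1 RPKM added, 1 was at least 2-fold lower: the phosphoglucomutase gene Pgm2, at 8.92 and 3.60 RPKM. Next to it, Ero1l, an oxidase of protein folding, read 16.1 and 7.70 RPKM (relative -0.66), while Hmox1, the haem oxygenase, read 1.84 and 2.04 RPKM.

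Neighbouring branches of carbon metabolism were mixed. The 10 tested pentose phosphate genes divided 5 below and 5 above the median of all genes (median -0.02); transketolase Tkt read 71.4 and 48.6 RPKM. The 8 tested genes of the pyruvate dehydrogenase complex and its regulators had a median of -0.13, with 6 below. In the citrate cycle list 17 of 21 lay below, with a median of -0.12, and the lowest was Acly, which exports citrate carbon for lipid synthesis, at 39.9 and 19.7 RPKM. Among 12 tested further isozymes of glycolysis and gluconeogenesis the median was -0.05, and Pck2, the mitochondrial carboxykinase, was the lowest at 12.9 and 6.36 RPKM. With 1 RPKM added, none of these 4 lists had a gene at least 2-fold lower, while Acly, Idh1 and Pck2 were past 2-fold without it.

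The 19 tested regulators in the Myc and mTOR list had a median relative value of -0.01, with 11 below and 8 above. Myc read 8.91 RPKM in the Nedd4+/+ library and 6.47 RPKM in the Nedd4-/- library, a relative value of -0.10. The lowest was the Myc antagonist Mxd4, at 6.43 and 3.72 RPKM, and Pik3cd, the leukocyte PI3 kinase subunit, read 20.4 and 13.2 RPKM.

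Genes of activated B cells and plasmablasts were lower beside the glycolysis genes. Of the 10, 8 lay below the median of all genes, with a median relative value of -0.38, and their summed level was 852 RPKM in the Nedd4+/+ library and 480.2 RPKM in the Nedd4-/- library. Igj, the joining chain of secreted antibody, read 216 and 96.4 RPKM and alone was at least 2-fold lower with 1 RPKM added. Irf4 read 72.1 and 35.8 RPKM and Prdm1 7.97 and 3.78 RPKM, both regulators of plasma cell formation. Without the added 1 RPKM both were past 2-fold lower. The 11 tested general B cell markers had a median of 0.07, with 5 below and 6 above; Cd79a read 13.9 and 15.6 RPKM (relative 0.47) and Cd22 read 49.1 and 26.8 RPKM (relative -0.53). The part of the share of activated cells in the glycolysis values was not tested.

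Markers of other cells were low apart from some T cell genes. The 14 T cell markers summed to 25.0 RPKM in the Nedd4+/+ library and 18.2 RPKM in the Nedd4-/- library, with 4 tested. Thy1, at 11.8 and 9.07 RPKM, was the highest, and Cd2, at 5.96 and 2.23 RPKM, was at least 2-fold lower. The rest of the list was under 1 RPKM, with Cd3d at 0.0896 and 0.362 RPKM, Cd3e at 0.107 and 0.371 RPKM, and Cd4 and Cd8a also there. The 16 myeloid markers found summed to 4.15 and 6.57 RPKM with none tested. The natural killer markers summed to 1.01 and 2.15 RPKM, the erythroid and megakaryocyte markers to 7.06 and 5.57 RPKM and the stromal and endothelial markers to 3.55 and 3.95 RPKM. None of these markers was listed at 0 in either library, and the highest outside the T cell list was Pecam1 at 2.15 and 1.25 RPKM. The part of these cells in the glycolysis values was not tested. Over all upstream windows the median level was 0.134 RPKM in the Nedd4+/+ library and 0.267 RPKM in the Nedd4-/- library. Markers near that level lie near the background, and its part in the sums was not tested.

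**Figure D4:**
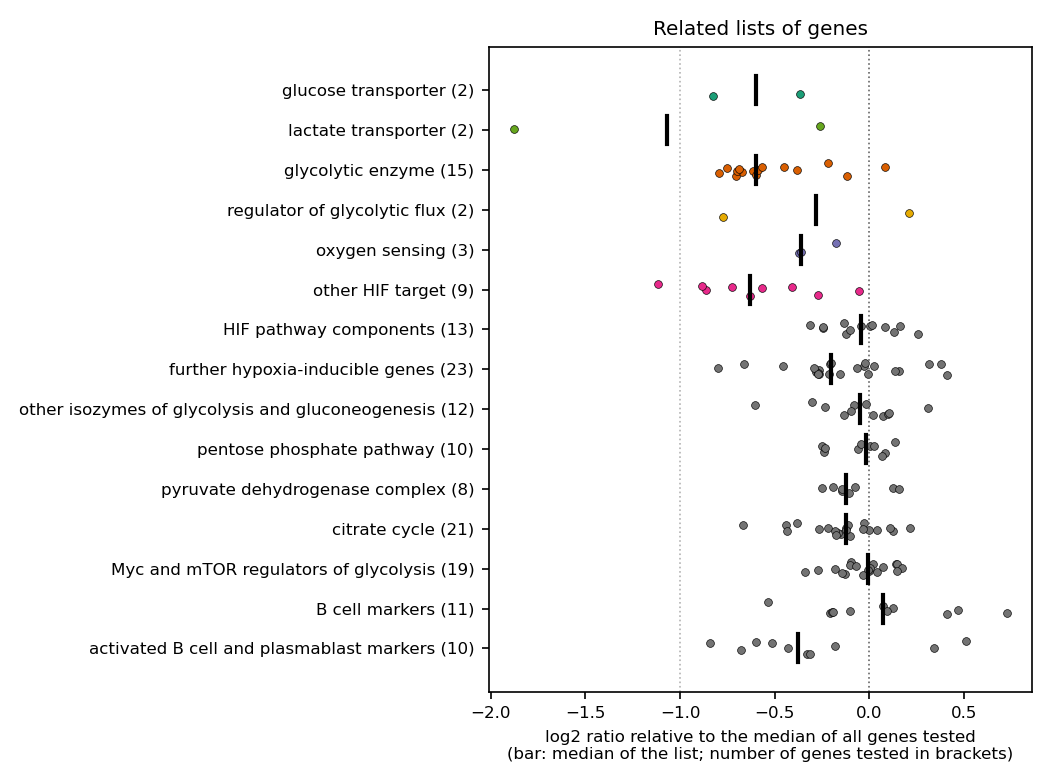
Relative log2 ratio (log2 ratio minus the median of all genes tested) of each tested gene, for the 6 roles (coloured) and for related lists (grey); the bar is the median of a list and brackets give the number of genes tested. The bars of the enzymes, transporters and other HIF targets lie near -0.60 or lower, the activated B cell list lies at -0.38 and the other lists lie between -0.20 and 0.07.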

How the data were processed

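The deposited tables hold 1 RPKM value per gene for each library and, in a second file, a ratio of the kilobase upstream to the gene, as the file headers name them. TopHat, Cufflinks and mm9 stand in the submitters' processing notes with no versions, per the labels' protocols RNA was depleted of rRNA with Ribo-Zero, and how multiply matching reads were counted is not given in the sources used here. The upstream level was rebuilt as the deposited ratio times (gene RPKM + 0.0001). Its low values were whole numbers of read bases in 4387 of 4388 and 1460 of 1460 windows (within 0.05 bases), which gave the depth. Taking 101 bases for each read of a pair, 1 pair in 1 kb was worth 0.0241 and 0.0328 RPKM. Pairs per gene were not counted but are read bases divided by the bases of a pair and rounded. They used transcript lengths from GENCODE M21 on GRCm38 for 22622 of the 23288 genes, so they are approximate.

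Genes reaching a mean of 1 RPKM were compared on log2(RPKM + 1) against a fold of 2. The genes and the 14 lists were chosen with earlier results of these data known. All 38 genes are named, and from each other list up to 4 genes with the largest absolute relative value. Myc, the T cell markers under 1 RPKM, the genes overlapping a member, and those lower than Slc16a3 were named after their values were seen. Intervals of single genes are Clopper-Pearson at 95%, and those of balances between related genes are conditional odds ratio intervals at 95%. The relative log2 ratio was tried on simulated data with planted changes larger than the fold of 2, in genes well above the minimum level. The simulation did not cover changes near 2-fold, planted changes in genes near 1 RPKM, or the ratio as deposited. Alternatives were the pseudocount, the minimum level, the scaling and the exclusion of genes with copies or overlaps. Python 3.11.15, numpy 2.4.6, pandas 2.3.3, scipy 1.17.1 and matplotlib 3.10.9 were used.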

Additional observations from a re-analysis of the deposited data

How the results depend on the processing

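With 1 library per genotype no setting measures the spread between cultures. The median log2 ratio of -0.90 became -0.62 with 5 RPKM added, -0.59 relative to the median of all genes, -0.59 after division by the sum of RPKM, -0.57 after division by the upper quartile and -0.52 relative to genes of like level, and the 12 genes at least 2-fold lower became 2 under each of those 5 settings. With 5 RPKM added the 2 were Slc16a3 (-1.11) and Pkm (-1.03), and Bnip3 was at -0.78. The share of all genes at least 2-fold lower went from 1.15% to 0.287% with 5 RPKM added, 0.223% by the median and by the upper quartile, 0.245% by the sum and 0.191% by like level. Adding 0.1 RPKM gave 18, against 2.43% of all genes. Leaving out the genes with copies or overlaps gave 5 genes at least 2-fold lower and 20 below the median of all genes, of 21 tested; fewer genes were tested there. The difference between enzymes and other HIF targets, 0.033, was -0.045 with 5 RPKM added and -0.026 without a minimum level, so its sign depends on these settings; the cause was not tested. With 1 RPKM added, the balance of Aldoa and Aldoc changed sign to -0.082 and that of Egln1 and Egln3 to -0.013. All 33 log2 ratios stayed below 0 with 0.1 or 5 RPKM added, and relative to the median of all genes Pfkm and Pfkfb3 were above 0. The upstream median kept its sign with 0.02 or 0.5 RPKM added, without a minimum and relative to all windows. The comparison with genes of like level, the subtraction of upstream levels and the exclusion of copies were chosen after seeing the data. No paired analysis was possible because each genotype has 1 library. Depth limits Ldhb, with about 11 and 15 read pairs, and the other genes under 1 RPKM.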
